A study of Mus musculus with 10 samples.

Results

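The genes described here are the fibroblast growth factor (FGF) ligands *Fgf1*, *Fgf2*, *Fgf9*, *Fgf10*, *Fgf16* and *Fgf18* and the FGF receptors *Fgfr1*, *Fgfr2*, *Fgfr3* and *Fgfr4*, in the mouse heart at embryonic day 13.5. They were chosen by name as ligands and receptors of heart growth, 10 of the 23195 genes in the deposited table. Hearts of 5 wild-type embryos and 5 null embryos, all male and of strain C57BL6/J, were compared, and the question was which genes change when *Nos1ap* is lost. The null embryos were homozygous for tm1d, a constitutive allele that lacks exon 4 of *Nos1ap* in every tissue, so that a change in the heart need not arise within heart cells. Stranded libraries of polyadenylated RNA from whole hearts were sequenced, and nothing in the samples separates cell types. In such bulk samples, fewer cells of a type and less RNA per cell cannot be told apart.

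FGFs are secreted proteins that bind receptor tyrosine kinases on nearby cells, with heparan sulfate on the cell surface as a cofactor. Ligand binding joins receptors in pairs and starts the RAS and MAP kinase cascade, whose targets include the ETS factors *Etv4* and *Etv5* and the feedback inhibitors of the Sprouty and dual specificity phosphatase families. In the developing heart, FGF9, FGF16 and FGF20 from the epicardium and endocardium drive division of cardiomyocytes through FGFR1 and FGFR2, and FGF10 is known from the second heart field and from the movement of epicardium-derived cells into the wall.

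Levels are normalized counts, which are read pairs per gene after correction for library depth by a size factor. The read pairs per gene are estimates of the program RSEM and not a direct tally. The table lists only the mean of each group, and the whole counts of single libraries were derived from those means. Libraries are therefore numbered 1 to 5 within a group by descending size factor, which is a different numbering from that of the sample labels. Counts were settled for 9 of the 10 FGF genes, and for *Fgfr1* only the authors' group means are given. An estimated 11328000 to 14023000 read pairs per library lay on genes (rounded to 1000). The targeted gene *Nos1ap* ranged from 126 to 161 normalized counts in wild-type libraries and from 31.1 to 44.4 in null libraries, with means of 144 ± 14.4 and 39.8 ± 5.20 (SD, n = 5 each). Its log2 fold change was -1.83 (SE 0.120, limma with Benjamini-Hochberg adjustment, adjusted p = 1.00e-08), and its groups did not overlap. The cardiomyocyte markers had group means of 1648 to 129864 normalized counts. Wild-type library 3 stood apart, with 1331 summed normalized counts of 7 neuron and glia markers against 190 to 247 in the other wild-type libraries and 183 to 233 in null libraries. *Fgf10* and *Fgfr4*, whose highest values lie there, are given with and without it. Where nothing ties libraries to separate litters, the tests measure only the spread between these samples.

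Of the 10 FGF genes, 9 had a mean of at least 10 normalized counts and 8 of these had settled counts and were tested with limma. None of the 8 was called at an FDR of 1% and an absolute log2 fold change over 1, the thresholds of the study, and 0.0290% of all 10335 genes tested were. The adjusted p was 0.998 for each of the 8. At an unadjusted p under 0.05, 1 of the 8 passed, which was *Fgf2*, against 3.55% of all genes tested. The log2 fold change was above 0 for 5 genes and below 0 for 3, with a median of 0.03 beside -0.0045 over all genes tested. Without wild-type library 3 they were 4 and 4, and without null library 2 they were 7 and 1. The median absolute log2 fold change was 0.073 beside 0.056 over all genes. The groups overlapped for each of the 9 genes with settled counts, whereas 0.784% of all genes tested did not overlap.

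**Figure D1:**
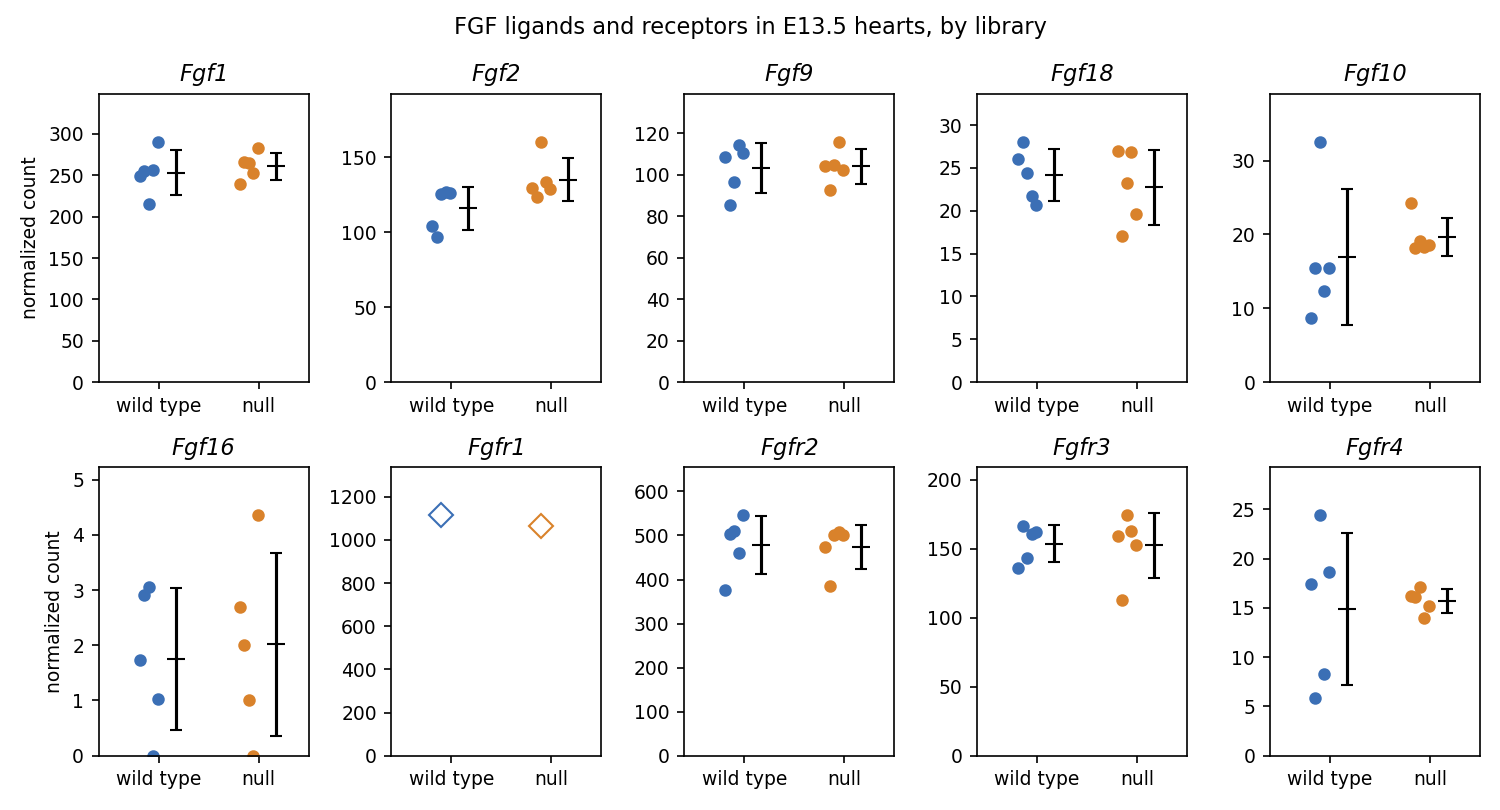
Normalized counts of the 10 FGF genes in single libraries, wild type in blue and *Nos1ap* null in orange, each panel on its own linear axis from 0. Bars give the mean and SD of 5 libraries, and open diamonds for *Fgfr1* are the authors' group means. Wild-type and null points overlap in all 9 panels with single libraries.

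*Fgf1* and *Fgf2* encode the ligands that lack a signal peptide and leave cells by an unconventional route. FGF1 binds every FGF receptor. *Fgf1* had 248.8, 255.6, 214.8, 255.9 and 290.7 normalized counts in wild-type libraries 1 to 5 and 239.4, 265.5, 265.2, 252.4 and 283.2 in null libraries 1 to 5. The null libraries lay inside the wild-type range. The means were 253 ± 27.0 and 261 ± 16.3 (SD, n = 5 each), and the log2 fold change was 0.05 (SE 0.0751, 95% interval -0.11 to 0.21, limma adjusted p = 0.998). The interval holds changes of a factor between 0.928 and 1.15.

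*Fgf2*, a mitogen of fibroblasts and endothelial cells, had the smallest p of the FGF genes. Its normalized counts were 104.4, 96.8, 125.2, 126.9 and 126.2 in wild-type libraries 1 to 5. In null libraries 1 to 5 they were 129.6, 123.7, 160.3, 133.2 and 128.5. All null libraries but library 2 were above every wild-type library, wild-type libraries 1 and 2 were the lowest of all, and null library 3 was far above the rest. The means were 116 ± 14.2 in wild type and 135 ± 14.5 in null hearts (SD, n = 5 each), a fold change of 1.17 with a 95% interval of 1.01 to 1.35. The log2 fold change was 0.22 (SE 0.101, unadjusted p = 0.0411, limma). The exact two-sided permutation test of the means gave p = 0.0397, where 252 arrangements allow no p below 0.00794. After Benjamini-Hochberg adjustment over all genes tested, the limma p was 0.998, so *Fgf2* did not pass. Leaving out null library 3 gave a log2 fold change of 0.16 with an unadjusted p of 0.140 (limma), and the unadjusted p also missed 0.05 without wild-type library 1 (0.0967), wild-type library 2 (0.131) or null library 4 (0.0577).

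*Fgf2* lies at chr3:37348346-37410108 on the plus strand (GRCm38, GENCODE M21), and its exons share 640 bases, 9.44% of their merged length, with *Nudt6* on the opposite strand. *Nudt6* encodes a nudix hydrolase and is known as the antisense gene of *Fgf2*. The libraries keep the strand and were counted by it. *Nudt6* averaged 47.5 ± 9.79 normalized counts in wild type and 41.5 ± 6.76 in null hearts (SD, n = 5 each), with ranges of 31.04 to 55.7 and 35.1 to 52.3. Its log2 fold change was -0.18 (SE 0.170, limma adjusted p = 0.998), so that no change of the antisense gene passed the test. *Fgf2* also shares 255 exon bases with *Gm43439* on its own strand, and reads there cannot be told apart by strand. No values are listed for *Gm43439*.

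*Fgf9*, the ligand of epicardium and endocardium that acts on cardiomyocytes, had 108.7, 85.2, 96.7, 114.6 and 110.7 normalized counts in wild-type libraries 1 to 5. Null libraries 1 to 5 had 104.4, 92.5, 104.9, 116.0 and 102.4. The groups overlapped over nearly their whole ranges. The lowest values were in wild-type library 2 and null library 2, which share only their rank of size factor. On the log2 scale *Fgf9* differed by 0.02 (SE 0.103, 95% interval -0.20 to 0.23, limma adjusted p = 0.998). *Fgf16*, which acts with *Fgf9* in the ventricular wall, was close to the detection limit. It had 2, 3, 3, 0 and 1 read pairs in wild-type libraries 1 to 5 and 3, 2, 1, 0 and 4 in null libraries 1 to 5. The mean normalized counts were 1.75 and 2.02 (exact two-sided permutation p = 0.802, n = 5 each), and a count of 0 allows up to 3 read pairs, or 3.10 normalized counts in wild-type library 4 and 3.22 in null library 4. A difference between the genotypes was not detectable at this depth.

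*Fgf18*, a ligand best known from cartilage, bone and lung, had 26.1, 28.1, 24.4, 21.7 and 20.7 normalized counts in wild-type libraries 1 to 5. In null libraries 1 to 5 it had 27.0, 17.1, 23.2, 26.8 and 19.6. Libraries of both groups were intermixed, with the lowest value in null library 2. For *Fgf18* the log2 fold change was -0.10 (SE 0.195, 95% interval -0.50 to 0.31, limma adjusted p = 0.998).

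*Fgf10*, the ligand of FGFR2 in lung buds, second heart field and epicardium-derived cells, had 8.7, 15.5, 32.6, 12.4 and 15.5 normalized counts in wild-type libraries 1 to 5. In null libraries 1 to 5 it had 24.3, 18.1, 19.2, 18.3 and 18.5. Wild-type library 3 was the highest of all 10, and the other wild-type libraries were below every null library. The means were 16.9 ± 9.18 in wild type and 19.7 ± 2.62 in null hearts (SD, n = 5 each). In limma the log2 fold change was 0.32 (SE 0.276, 95% interval -0.25 to 0.90, limma adjusted p = 0.998).

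Without wild-type library 3, *Fgf10* was the only FGF gene whose groups did not overlap, against 0.813% of all genes tested that were higher in every null library and 1.35% that did not overlap in either direction. The wild-type mean fell to 13.0 ± 3.24 (SD, n = 4). The exact two-sided permutation test then gave p = 0.00794, the smallest that its 126 arrangements allow. The log2 fold change was 0.58 (SE 0.236, 95% interval 0.09 to 1.07, unadjusted p = 0.0214), and the limma p adjusted over all genes was 0.998. *Fgf10* therefore did not pass the test in either fit. Library 3 held the highest *Fgf10* value, so leaving it out lowers the wild-type mean by construction. The separation without it, and its p, are therefore no independent support for a change.

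Markers of some other tissues moved with the high *Fgf10* value of wild-type library 3. Besides the neuron and glia markers, of which 7 of 7 were highest there, the 6 listed lung bud epithelium markers summed to 47.8 normalized counts in this library, against 7.74 to 13.4 in the other wild-type and 5.04 to 13.5 in the null libraries. Of these 6, 4 were highest in library 3, among them *Shh*, the hedgehog ligand of the lung bud. *Shh* had 5.09 normalized counts there and 0 in the other wild-type libraries. *Sftpb* and *Wnt7b* were not highest there. *Sftpb* had 0 in library 3 and 1.03 in wild-type libraries 4 and 5. *Wnt7b* had 4.07 in library 3, 6.19 in wild-type library 4 and 7.52 in null library 4. *Nkx2-1* and *Sftpc*, which define lung bud epithelium, are not listed in the table. The 3 listed skeletal muscle markers summed to 33.6 normalized counts in library 3, and *Myf5* of the same list is not listed in the table. Their sum was 2.61 to 5.81 in the other wild-type and 3.60 to 12.9 in the null libraries. *Isl1*, which marks the second heart field and also cardiac neurons, had 125 normalized counts in library 3, 50.6 to 72.4 in the other wild-type libraries and 40.2 to 55.8 in null libraries. *Tbx1*, of the same list, was higher in wild-type library 5 (8.28) than in library 3 (7.13). The sum of 4 liver markers went the other way within wild type, with 15.3 in library 3 against 20.01 to 75.5 in the other wild-type libraries. Null libraries had 14.1 to 29.4, and 1 of the 4 liver markers was highest in library 3. The part of these tissues in the *Fgf10* value was not tested.

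**Figure D2:**
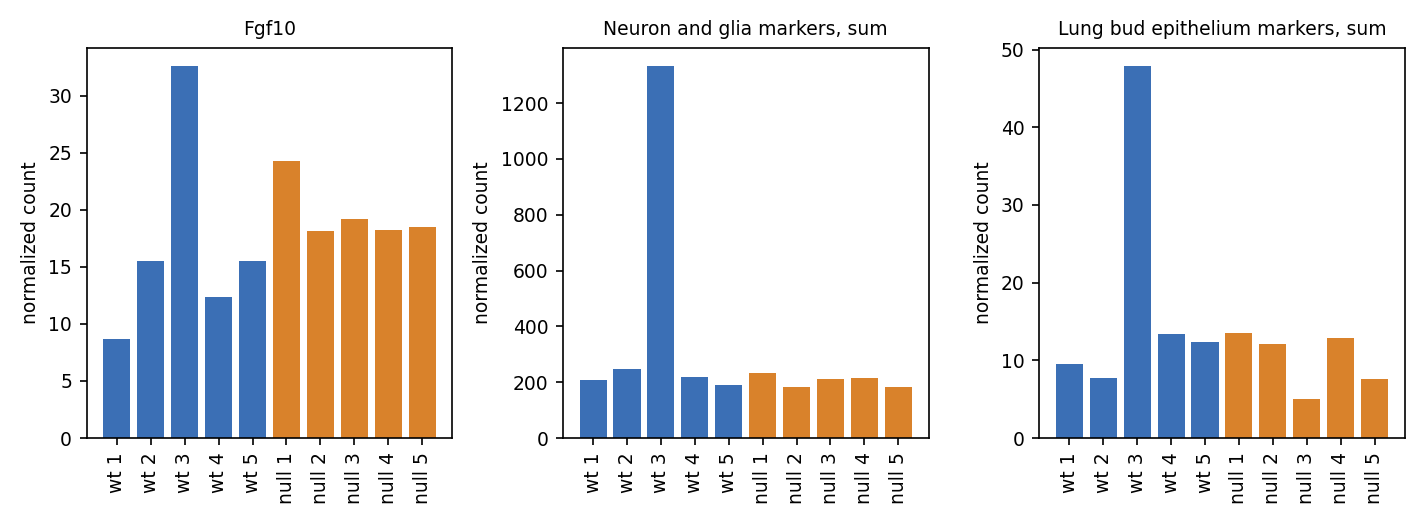
Normalized counts of *Fgf10* and summed normalized counts of 7 neuron and glia and 6 lung bud epithelium markers in each library, wild type (wt) in blue and *Nos1ap* null in orange, on linear axes from 0. All 3 measures peak in wild-type library 3, at 32.6, 1331 and 47.8.

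*Fgfr1*, the receptor with the highest level per kilobase, carries FGF signals in cardiomyocytes together with *Fgfr2*. The authors' group means of *Fgfr1* were 1115 normalized counts in wild type and 1065 in null hearts, a log2 ratio of -0.07, and no test was possible on means alone. *Fgfr2* had 375.8, 504.3, 510.0, 459.2 and 546.2 normalized counts in wild-type libraries 1 to 5 and 474.3, 386.1, 502.1, 506.9 and 501.0 in null libraries 1 to 5. One library of each group was low, library 1 in wild type and library 2 in null, and the others were intermixed. The log2 fold change was -0.01 (SE 0.102, 95% interval -0.23 to 0.21, limma adjusted p = 0.998). The interval leaves room for a factor of 0.851 to 1.16.

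*Fgfr3*, known mainly from cartilage and the nervous system, had 135.7, 166.5, 143.5, 161.0 and 162.4 normalized counts in wild-type libraries 1 to 5. In null libraries 1 to 5 it had 159.3, 112.6, 174.4, 163.2 and 152.5. Null library 2 was the lowest of all 10 libraries, and the other null libraries lay within or just above the wild-type range. The fitted change of *Fgfr3* was -0.02 on the log2 scale (SE 0.105, 95% interval -0.24 to 0.19, limma adjusted p = 0.998). *Fgfr4*, the receptor of liver and of muscle progenitors, had 17.4, 5.8, 24.4, 8.3 and 18.6 normalized counts in wild-type libraries 1 to 5 and 16.2, 16.1, 17.1, 14.0 and 15.2 in null libraries 1 to 5. The null libraries were close together inside a wide wild-type range, whose top was again library 3. The means were 14.9 ± 7.71 and 15.7 ± 1.19 (SD, n = 5 each), and the log2 fold change was 0.23 (SE 0.316, 95% interval -0.43 to 0.89, limma adjusted p = 0.998). It was 0.44 without wild-type library 3 (unadjusted p = 0.148), 0.08 without wild-type library 4 and -0.03 without wild-type library 2.

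Null library 2 held the lowest null value of 6 of the 9 FGF genes with settled counts, *Fgf2*, *Fgf9*, *Fgf10*, *Fgf18*, *Fgfr2* and *Fgfr3*. Over all genes tested, it was the lowest null library for 27.4% and the highest for 27.0%. Without null library 2, the log2 fold changes of *Fgfr2* and *Fgfr3* were 0.06 and 0.08, and that of *Fgf2* was 0.25 (limma adjusted p = 0.940, 0.909 and 0.841).

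**Figure D3:**
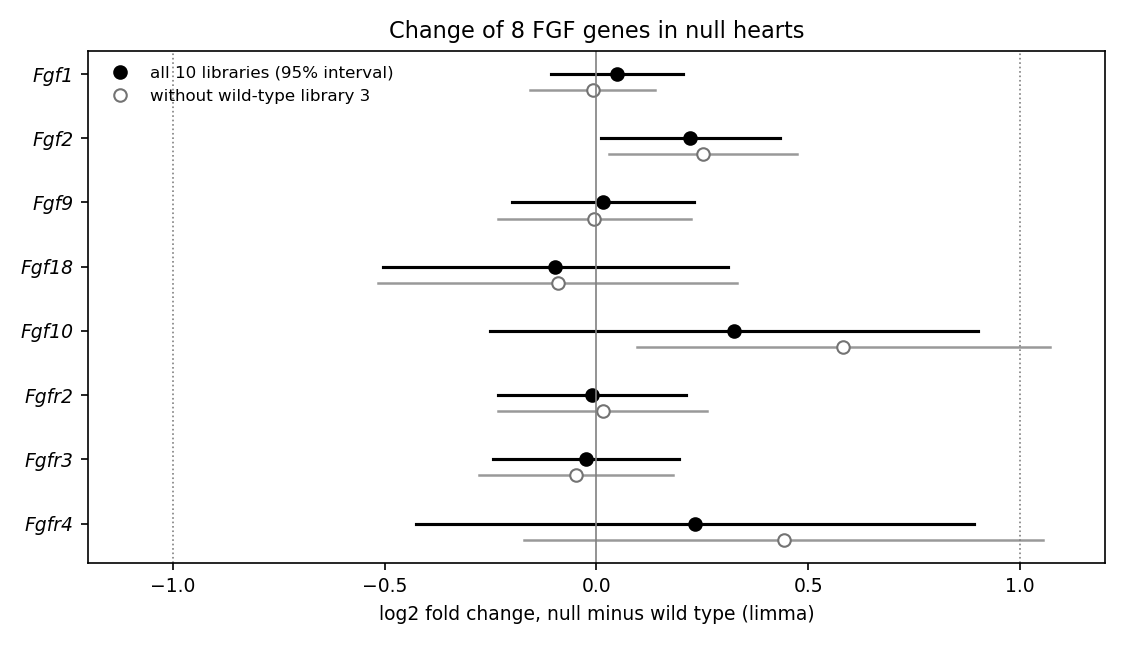
Log2 fold change of the 8 tested FGF genes, null minus wild type, with 95% intervals from limma, for all 10 libraries (black) and without wild-type library 3 (grey). Dotted lines mark the fold change threshold of 1. Only the interval of *Fgf2* excludes 0 with all libraries, and those of *Fgf2* and *Fgf10* without library 3.

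Levels of different genes were compared as normalized counts per kilobase of merged exons, averaged over the libraries. On this scale *Fgfr1* led with 110, followed by *Fgf1* with 47.1, *Fgfr2* with 46.1 and *Fgf9* with 22.3. The next were *Fgfr3* with 21.4, *Fgf18* with 19.8 and *Fgf2* with 18.5, and the lowest were *Fgfr4* with 4.32, *Fgf10* with 3.98 and *Fgf16* with 1.14. Neighbours in this order overlapped in their ranges over 10 libraries, except that every library had more *Fgfr2* than any had *Fgf9*, and more *Fgf2* than any had *Fgfr4*. *Fgfr1* has no range. Divided by the longest transcript instead, 6 of the 10 ranks were the same, with *Fgf1* and *Fgfr2* exchanged and *Fgf9* and *Fgfr3* exchanged.

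The summed level per kilobase of the 4 receptors was 1.62 times that of the 6 ligands, and 2.57 times with the length of the longest transcript in place of merged exons. In wild type *Fgfr1* made up 61.0% of the receptor sum, *Fgfr2* 25.1%, *Fgfr3* 11.6% and *Fgfr4* 2.27%. In null hearts the shares were 60.1%, 25.6%, 11.9% and 2.47%. Among the ligands *Fgf1* held 41.8% of the wild-type sum and 41.7% of the null sum, and *Fgf9* 20.04% and 19.5%. *Fgf2*, with 15.4% in wild type and 17.4% in null hearts, and *Fgf18*, with 18.4% and 16.7%, exchanged places in the order of shares. These shares are ratios of group means and carry no test.

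**Figure D4:**
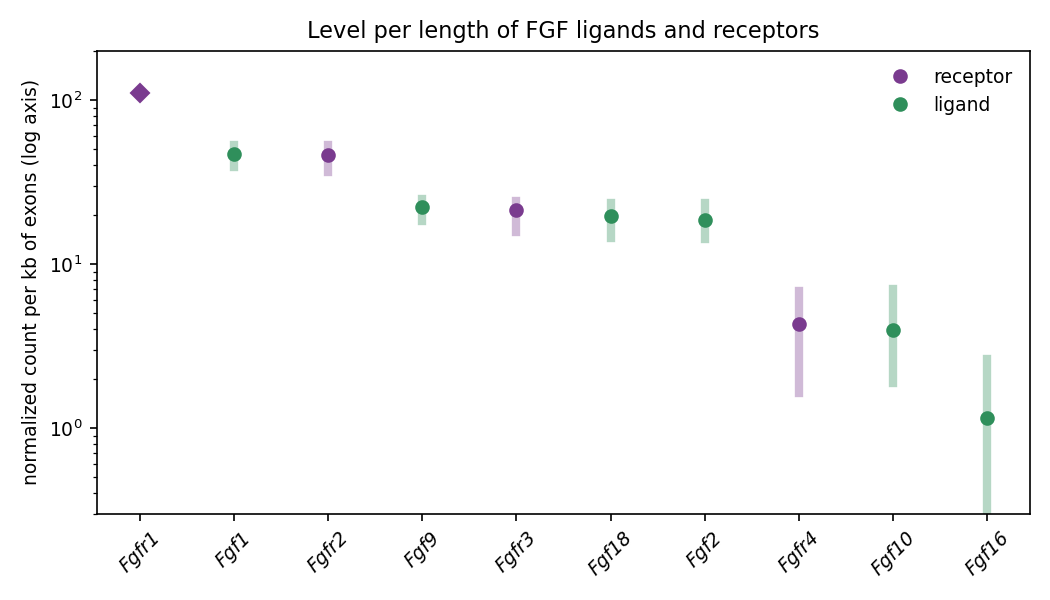
Normalized counts per kilobase of merged exons on a log axis, receptors in purple and ligands in green, as the average over both genotypes. Bars span the lowest to the highest of 10 libraries (the bar of *Fgf16* runs on to 0), and the diamond of *Fgfr1* is the authors' mean alone. Gaps between neighbouring bars appear only below *Fgfr2* and below *Fgf2*.

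The gene models add possible limits to some of these values, although they are of GENCODE M21 and reads were counted on M10. *Fgfr2* lies at chr7:130162451-133123350 on the minus strand, where 314 of its exon bases are shared with *Ctbp2* on the same strand (902 and 890 normalized counts in wild type and null hearts). *Fgfr3* lies at chr5:33721674-33737068 on the plus strand and shares 998 exon bases with *G630022F23Rik* on the opposite strand, which had group means of 0.381 and 0.201. *Fgf10* (chr13:118669791-118792115, plus strand) and *Fgfr1* (chr8:25513654-25575718, plus strand) each overlap an antisense gene model, *Gm16263* and *Gm16159*. Neither antisense gene has listed values, and the libraries were counted by strand. No exon overlap was found for *Fgf9* (chr14:58070547-58112720), *Fgf16* (chrX:105764279-105774939), *Fgf18* (chr11:33117430-33147400), *Fgfr4* (chr13:55152640-55168759) or *Fgf1*.

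Promoter windows of 300 bases, from 250 bases before to 50 after a RefSeq start (GRCm38.p6), were given for 7 of the 10 genes, and *Fgfr3* has starts in 2 windows. The dinucleotide CG occurred 47 times in the window of *Fgf18*, 26 and 30 times in those of *Fgfr3*, and 24 times in that of *Fgf2*. *Fgfr4* had 20, *Fgf9* 12, *Fgf10* 10 and *Fgfr2* 4, and the median of all 32851 windows was 7. *Fgf18* thus had more than 98.6% of all windows, and *Fgfr2* more than 31.4%. The letters TATAAA, searched on both strands of the 250 upstream bases, were found in 0 of these windows against 12.4% of all. The upstream bases of the windows richest and poorest in CG are printed 5′ to 3′ on the strand of the gene, with every CG in capitals, as the extremes of the windows given.
*Fgf18*, chr11:33147401-33147650, minus strand: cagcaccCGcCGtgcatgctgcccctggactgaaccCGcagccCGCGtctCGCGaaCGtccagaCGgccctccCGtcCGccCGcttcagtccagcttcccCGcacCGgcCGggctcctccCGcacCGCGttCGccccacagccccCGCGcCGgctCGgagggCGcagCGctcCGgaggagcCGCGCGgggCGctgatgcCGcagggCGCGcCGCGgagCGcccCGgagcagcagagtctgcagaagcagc
*Fgfr2*, chr7:130266809-130267058, minus strand: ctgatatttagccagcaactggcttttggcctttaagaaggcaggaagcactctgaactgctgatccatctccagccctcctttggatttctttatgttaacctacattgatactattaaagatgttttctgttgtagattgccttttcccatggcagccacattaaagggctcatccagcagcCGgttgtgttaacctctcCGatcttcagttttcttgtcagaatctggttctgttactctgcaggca
The stretch of *Fgf18* holds 37 CG and that of *Fgfr2* holds 2. The stretch of *Fgfr2* lies inside the gene model given above, away from the start of that model. Per kilobase of exons, *Fgf18* had 19.8 normalized counts and *Fgfr2* 46.1, and a relation of CG number to level was not tested.

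The genes around the ligands and receptors were read from 7 lists of 109 genes, other FGF ligands, intracellular FGF homologues, co-receptors and heparan sulfate, signal transduction, feedback inhibitors, transcriptional targets, and the hedgehog and VEGF relay of coronary growth. The table lists 106 of them (not *Fgf4*, *Fgf21* and *Fgf22*), 91 had a mean of at least 10, and 58 had settled counts and were tested. None of the 58 was called. At an unadjusted p under 0.05, 0 were higher and 3 were lower in null hearts, 5.17% of the 58, against 1.70% and 1.85% of all genes tested. The count in either direction was 5 without null library 2, 1 without null library 5, 2 without null library 4 or any 1 wild-type library, and 3 without null library 1 or 3. The share of all genes tested moved as well. In either direction it was 5.62% without null library 2, 2.91% without null library 5 and 3.28% to 4.61% without any other library, beside 3.55% with all. The median log2 fold change over the 58 was -0.0070, beside -0.0045 over all genes tested.

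The 3 with an unadjusted p under 0.05 come from different lists. *Angpt2*, an angiopoietin of vessel remodelling, had 64.4, 56.1, 59.0, 62.95 and 63.1 normalized counts in wild-type libraries 1 to 5 and 62.1, 24.1, 39.3, 50.5 and 44.7 in null libraries 1 to 5. All null libraries but library 1 were below every wild-type library. Its log2 fold change was -0.52 (SE 0.187, unadjusted p = 0.0114, limma adjusted p = 0.998), and without null library 2 it was -0.33. *Etv4*, an ETS factor switched on by FGF signals, had 189.6, 163.6, 216.8, 170.3 and 209.0 normalized counts in wild-type libraries 1 to 5 and 168.3, 162.9, 168.4, 168.6 and 152.5 in null libraries 1 to 5. The null libraries lay at or below the low end of a wide wild-type range. Its log2 fold change was -0.20 (SE 0.0841, unadjusted p = 0.0266, limma adjusted p = 0.998), and -0.15 with an unadjusted p of 0.0898 without wild-type library 3. *Sdc1*, a heparan sulfate proteoglycan of the cell surface, averaged 720 ± 16.9 normalized counts in wild type and 670 ± 45.7 in null hearts (SD, n = 5 each; log2 fold change -0.11, SE 0.0482, unadjusted p = 0.0385, limma adjusted p = 0.998). Leaving out null library 2 gave -0.085 (unadjusted p = 0.0947).

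**Figure D5:**
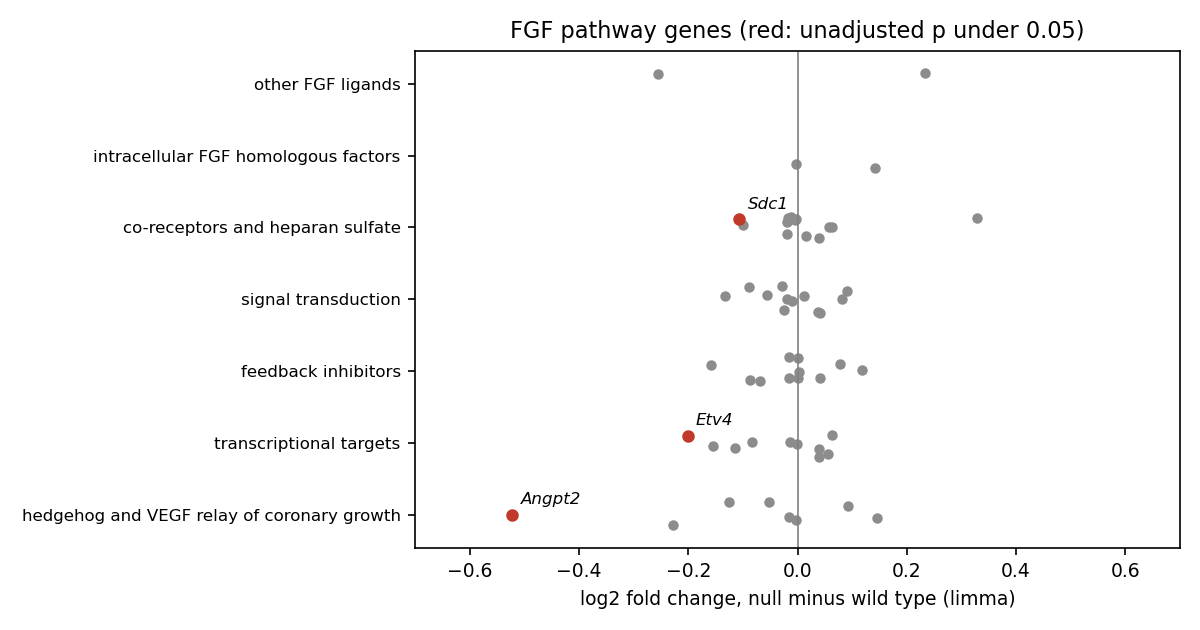
Log2 fold change, null minus wild type, of the 58 tested genes of the 7 lists, 1 point per gene, with random vertical offsets. The 3 red points (*Sdc1*, *Etv4* and *Angpt2*) have an unadjusted p under 0.05, all lie below 0, and the adjusted p is 0.998 for each.

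Among the other FGF ligands, 2 were tested. *Fgf7*, a ligand of mesenchyme, averaged 10.2 ± 1.96 normalized counts in wild type and 12.5 ± 4.11 in null hearts, and *Fgf5*, known for ending hair growth, had 12.0 ± 4.64 and 10.1 ± 4.57 (SD, n = 5 each). *Fgf23*, the phosphate hormone, had group means of 9.93 and 9.26, just under the minimum mean. The intracellular homologues, which bind sodium channels and not FGF receptors, had group means, in wild type and null hearts, of 559 and 507 normalized counts for *Fgf13*, 174 and 175 for *Fgf11* and 104 and 105 for *Fgf12*. *Fgf12* had 36.2 normalized counts in wild-type library 5 and 98.1 to 129 in the other 9 libraries.

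Of the feedback inhibitors, 11 of 12 were tested and 0 had an unadjusted p under 0.05, with log2 fold changes from -0.16 to 0.12. *Dusp6*, the phosphatase of ERK, averaged 622 ± 29.1 normalized counts in wild type and 643 ± 65.7 in null hearts, and *Spred1*, an inhibitor of RAF activation, had 847 ± 35.9 and 840 ± 62.9 (SD, n = 5 each). The 12 tested genes of signal transduction ranged from -0.13 to 0.09. The most abundant genes of that list were too high for settled counts. Of the transcriptional targets, 10 of 14 were tested and 1 (*Etv4*) had an unadjusted p under 0.05, with log2 fold changes from -0.20 to 0.06.

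Genes whose log2 values over the 10 libraries were most like those of an FGF gene were sought among 8425 protein-coding genes, for each of the 5 FGF genes that had settled counts and averaged 50 or more. The 3 nearest genes of each gave 15 pairs, with Pearson's r from 0.865 to 0.983, Spearman's rho from 0.661 to 0.952 and r from 0.533 to 0.926 once the 2 libraries farthest from the median were left out. They are a description, since each is the highest of 8425 values and since all genes share the libraries and their depth. For *Fgfr3* the nearest were *Il1r1* (r = 0.983, rho = 0.830), *Ace* (r = 0.978, rho = 0.952) and *Adamtsl1* (r = 0.971, rho = 0.903), and r was 0.900, 0.906 and 0.912 without the 2 libraries farthest from the median. *Il1r1* is the receptor of interleukin 1 and *Ace* the angiotensin-converting enzyme. For *Fgfr2* the nearest were *Per2*, *Zfp9* and *Sall3* (r = 0.960, 0.959 and 0.954). The nearest genes of *Fgf1* were *Bloc1s6*, *Cbr4* and *Acot2*, those of *Fgf2* were *Socs6*, *Klhl3* and *Tnfrsf19*, and those of *Fgf9* were *Ogfod3*, *Prrt4* and *Nmnat1*.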

How the data were processed

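RNA-seq was performed on polyadenylated RNA of whole hearts from 5 embryos of each genotype, all male, grouped by the sample labels. The submitters' processing notes name FastQC 0.11.5, Trimmomatic 0.36, STAR, RSEM 1.2.31 and DESeq 1.24.0, and genes were counted on GENCODE M10 (GRCm38). The signal values in the deposited table are group means of normalized counts. For these the authors divided the estimated read pairs of each library by its size factor. Its columns of fold changes, p-values and adjusted p-values hold the authors' own comparison and were not used.

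A group mean is the sum of 5 whole counts, each divided by its size factor, over 5. For means under 1000, counts that give the printed 15 digits were searched in a reduced lattice. A set was kept where at most 0.01 other sets were expected by chance. For means under 200 it was also kept where it was the only set. This settled 99.0% of genes with means under 1000 in wild type and 99.1% in null. At means of 200 or more, only counts nearly even across libraries could be kept, so the most uneven genes can be missing from the tests. Of 13299 protein-coding genes that averaged 10 or more, 10335 had settled counts. Shares of all genes tested therefore leave out the most abundant genes, with means of 1000 or more. The search was tested on simulated data, in which every gene had the same small spread between libraries beyond counting error. That test does not cover genes whose libraries are more uneven. Because the table holds means and not counts, normalized counts were tested as log2(value + 1) with limma 3.58.1 (trended, robust), two-sided, for 10335 protein-coding genes that had settled counts and averaged 10 or more, with Benjamini-Hochberg adjustment. The added 1 shrinks fold changes of low genes. A difference of mean log2 values can also depart from the log2 ratio of the group means where libraries are uneven. That ratio was 0.22 for *Fgf10* and 0.08 for *Fgfr4*, beside fitted values of 0.32 and 0.23. Single genes were also compared by exact permutation. Correlations have no test in the text.

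Alternatives changed the pseudocount, the model (voom), the filter, the gene class, the scaling and the FDR, and left out each library in turn. Genes named are the FGF genes, *Nos1ap*, list genes with an unadjusted p under 0.05 or among the 3 most abundant of a list, and the 3 genes most like each FGF gene in pattern. *Shh*, *Sftpb*, *Wnt7b*, *Isl1*, *Tbx1*, *Nudt6* and *Ctbp2* were named after their values were seen. The FGF genes and the lists were chosen with earlier results of these data known. The limit for a count of 0 covers counting error only. Gene models were read from GENCODE M21. Some genes that these rules select are not given here.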

Additional observations from a re-analysis of the deposited data

Results flagged for a closer look

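In groups of 5 libraries, the gap between an extreme library and its nearest neighbour was compared with Dixon's critical value. Of the 68 groups tested, 10 passed it. The nominal rate of about 1 in 20 holds for independent normal values. These groups are counts and sums from shared libraries, so their share cannot be compared with that rate, and the share over all genes was not determined. For *Fgf2*, null library 3 had 160 normalized counts against 124 to 133 in the other null libraries. *Fgf10* stood out in both genotypes, with 32.6 in wild-type library 3 against 8.70 to 15.5 in the others, and with 24.3 in null library 1 against 18.1 to 19.2. *Fgfr2* had 386 in null library 2 against 474 to 507.

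Of the other FGF genes, *Fgf7* had 19.6 normalized counts in null library 5 against 9.66 to 12.1, *Fgf11* had 137 in null library 2 against 177 to 193, and *Fgf12* had 36.2 in wild-type library 5 against 113 to 129. Wild-type library 3 was high in the summed markers of lung bud epithelium (47.8 normalized counts), of neuron and glia (1331) and of skeletal muscle (33.6).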

How the results depend on the processing

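No FGF gene was called under any of the 17 alternatives in which it was tested (5 of the 8 could be tested at a minimum mean of 50), and 2 to 3 of all genes were. Of the 125 fold changes recomputed for these genes, 11 changed sign, each when 1 library was left out. With single libraries left out, the log2 fold change ranged from -0.0086 to 0.10 for *Fgf1*, 0.16 to 0.26 for *Fgf2*, -0.050 to 0.057 for *Fgf9*, 0.14 to 0.58 for *Fgf10*, -0.16 to -0.0044 for *Fgf18*, -0.095 to 0.061 for *Fgfr2*, -0.077 to 0.080 for *Fgfr3* and -0.033 to 0.44 for *Fgfr4*. *Fgf2* had an unadjusted p under 0.05 in 12 of its 16 refits (0.0275 to 0.140), with adjusted p-values of 0.841 to 1.000. Length by the longest transcript left 6 of 10 ranks of level per kilobase as they were. No paired analysis was possible because the group means carry no replicate numbers. None of the listed pathway genes was called under these alternatives either. Of them, 1 to 5 had an unadjusted p under 0.05, where 2.91% to 5.62% of all genes tested did. Depth leaves *Fgf16* at 0 to 4 read pairs per library, and *Fgfr1* has no test because its counts were not settled.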
